A study of Homo sapiens with 40 samples.

Results

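The genes described here are a set of 51 genes that carry out mitosis or prepare a cell for it in G2. They were chosen by symbol, from textbook knowledge of the cell division machinery and with earlier results of these data known. All 51 were among the 12655 genes of the deposited count table, and all 51 passed the filter on low counts in both cell lines. They were read across 40 libraries of human squamous carcinoma spheroids: 20 from FaDu, a line from a hypopharyngeal carcinoma, and 20 from Kyse30, a line from an oesophageal carcinoma.

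Both lines carried Dendra2, a fluorescent protein that switches from green to red on illumination, and were grown as spheroids embedded in type I collagen for 72 h of treatment. Each line had 5 groups of 4 samples. The first group was kept in serum-free medium with no EGF. The other groups all received 9 nM epidermal growth factor (EGF), the ligand of the EGF receptor. EGF-treated cells were divided into an invasive group, taken from areas that had moved into the collagen, and a non-invasive group from the remainder of such spheroids. The sample titles call the cells of both groups photoconverted. A further group received EGF with 10 µg/mL cetuximab, an antibody that binds the receptor, and the last received EGF with 100 nM AZD6244, an inhibitor of the kinase MEK. Serum-free, cetuximab and MEK inhibitor samples were not selected by position, so treatment and the selection of non-invasive cells cannot be told apart in any comparison of the non-invasive group with those groups. Each sample was a pool of sorted cells (more than 1000 per group, from 40 spheroids per treatment), and no label says that the 4 samples of a group came from separate cultures. The p-values therefore reflect how far these samples scatter, and that scatter may be technical only.

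Entry into mitosis is driven by CDK1 bound to cyclin B, and by the Aurora and Polo-like kinases it works with. Chromosomes then attach to spindle microtubules through kinetochores, and the spindle assembly checkpoint holds the cell in metaphase until every kinetochore is attached. Exit follows when the anaphase-promoting complex (APC/C) with its activator CDC20 marks securin and cyclin B for degradation, after which the cell is divided by cytokinesis. Most of these genes are transcribed late in the cell cycle, so their RNA level in a bulk sample rises with the share of cells in G2 and mitosis. In such samples fewer cells of a type and less RNA per cell cannot be told apart.

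Total counts ran from 2312126 to 5669262 in 39 of the 40 libraries. The exception, replicate 1 of the Kyse30 invasive group, held 463124 counts, of which 446 fell on the 51 genes, and only 17 of the 51 had any count. It also had the highest share of counts on mitochondrial genes, 26.6%. Replicates 1 and 3 of the Kyse30 non-invasive group had 6.27% and 9.63% of counts on the nuclear RNA MALAT1, against 1.68% and 1.91% in replicates 2 and 4. Kyse30 results are given with all 20 libraries, without the shallow library, and, where it matters, without these 3. All 8 squamous epithelial markers examined (KRT5, KRT14, KRT6A, TP63, EPCAM, CDH1, DSG3 and SFN) were in the table. Of the fibroblast, leukocyte and endothelial markers only COL1A1, CD68 and CDH5 were, at most at 24.7, 53.7 and 34.6 CPM in any library. The value of CD68 came from the shallow library. Levels are in CPM, the usual abundance scale relative to the total count of a library, with totals adjusted by TMM.

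Many G2/M genes are known to be controlled through short promoter elements: the cell cycle genes homology region (CHR), bound by the MuvB core that works with either the repressive DREAM proteins or the activators B-MYB and FOXM1, and CCAAT boxes, bound by the factor NF-Y. RefSeq start sites (GRCh38.p14) gave promoter windows, from 250 bases before to 50 bases after the start, for 45 of the 51 genes. Both strands were searched. The CHR letters TTTGAA or TTCGAA were in the windows of 35 of the 45 genes (77.8%), against 19.5% of the 27305 genes with a window. CCAAT was in those of 36 genes (80%, against 39.7%). The related letters TTTAAA were in those of 15 (33.3%, against 14.5%).

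Stretches of 6 of these promoters are shown because they hold a CHR and belong to genes whose values are given library by library below. Each runs 5′ to 3′ on the strand of the gene and ends at most 30 bases past the start, and capitals mark CHR and CCAAT matches on either strand (TTCAAA and ATTGG are the reverse complements).
CDK1, GRCh38.p14 chr10:60778155-60778200, plus strand: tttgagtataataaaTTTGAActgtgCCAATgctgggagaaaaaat
CKS2, chr9:89311032-89311186, plus strand: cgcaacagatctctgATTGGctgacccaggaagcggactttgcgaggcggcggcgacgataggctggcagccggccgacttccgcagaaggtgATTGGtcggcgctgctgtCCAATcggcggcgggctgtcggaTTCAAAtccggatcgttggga
PLK1, chr16:23678801-23678880, plus strand: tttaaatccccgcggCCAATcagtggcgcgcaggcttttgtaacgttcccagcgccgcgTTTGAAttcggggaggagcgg
BUB1B, chr15:40161031-40161066, plus strand: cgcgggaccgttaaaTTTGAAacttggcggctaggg
MAD2L1, chr4:120066819-120067092, minus strand: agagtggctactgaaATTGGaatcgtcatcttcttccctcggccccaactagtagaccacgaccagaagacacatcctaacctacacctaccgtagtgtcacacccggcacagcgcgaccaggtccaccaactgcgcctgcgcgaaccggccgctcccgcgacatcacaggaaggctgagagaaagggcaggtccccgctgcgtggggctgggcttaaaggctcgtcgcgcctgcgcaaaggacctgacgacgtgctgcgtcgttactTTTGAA
KIF18A, chr11:28108146-28108216, minus strand: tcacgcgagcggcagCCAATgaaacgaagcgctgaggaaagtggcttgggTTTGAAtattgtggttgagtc

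The CHR began 29 bases before the start in both CKS2 and PLK1, 23 bases before it in BUB1B and 10 bases before it in KIF18A. In CDK1 it lay 161 bases upstream of the listed start, and in MAD2L1 it lay 25 bases past it. Over the first listed window of each of the 45 genes there were 44 CHR matches, 75% of them within 50 bases of the start, with a median position of -23. CCAAT matches numbered 76, and only 17.1% lay that close, with a median position of -74. The plot of element positions shows the CHR peak at the start and the CCAAT peak upstream of it. The window of CCNB1 held CCAAT and TTTAAA but neither CHR form.

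**Figure D1:**
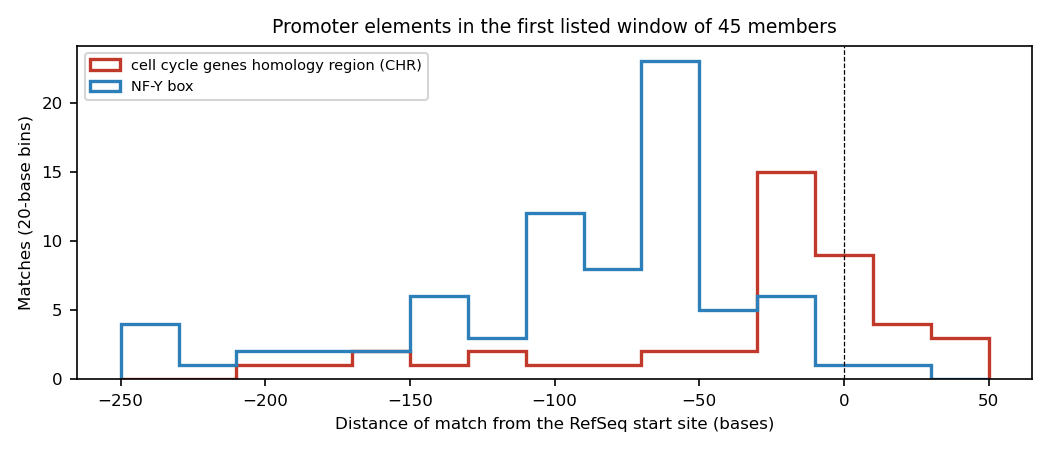
Positions of promoter element matches relative to the RefSeq start site (horizontal axis, bases; 0 is the start) in 20-base bins, as number of matches (vertical axis) over the first listed window of 45 genes. The red line is the cell cycle genes homology region (44 matches, median position -23) and the blue line the NF-Y box (76 matches, median position -74).

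Values were set side by side for genes with and without a CHR. In FaDu the median log2 fold change of non-invasive EGF cells against serum-free spheroids was 2.79 for the 35 genes with a CHR, 3.23 for the 10 without and 3.14 for the 6 with no window in the table. In Kyse30 the same medians were 1.19, 0.90 and 1.38. These are descriptions of the sets, with no test.

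The comparison of non-invasive EGF cells with serum-free spheroids sets EGF-treated cells selected as non-invasive against unselected cells kept without EGF, so EGF and the selection change together in it. In FaDu almost the whole set was higher in the non-invasive EGF cells: 49 of the 51 genes were called higher and 1 lower (edgeR quasi-likelihood test, Benjamini-Hochberg adjusted p under 0.05 over 12131 genes). Of all genes tested 50% were called in this comparison, 25.3% higher and 24.7% lower. The median log2 fold change of the set was 2.95, against -0.02 over all genes. Summed over the 51 genes, the level was 916, 919, 880.1 and 925 CPM in the serum-free libraries and 4434, 4993, 4391 and 4293 CPM in the non-invasive ones. Mitochondrial genes took 15.3% of counts on average in the serum-free libraries and 9.37% in the non-invasive ones, and the part this plays in the result was not tested. The plot of summed levels shows the 4 serum-free FaDu libraries close together and below every other FaDu library.

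**Figure D2:**
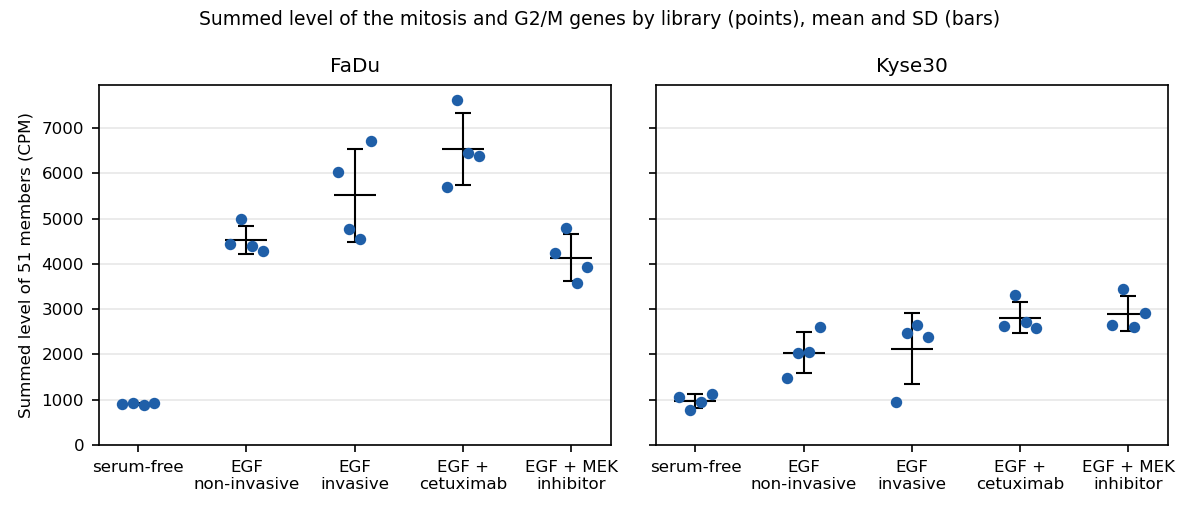
Summed level of the 51 genes in CPM (vertical axis, from 0) in each library (points) of the 5 groups of FaDu (left) and Kyse30 (right), with the mean (wide bar) and SD (error bar) of 4 libraries. The FaDu means are 910.1 CPM serum-free and 4528 CPM non-invasive, and the Kyse30 means are 973 and 2041 CPM; the lowest Kyse30 invasive point is the shallow library.

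Among the cyclins and regulators of CDK1, 7 of 8 rose. CCNB1, the cyclin B1 that activates CDK1, stood at 6.54, 10.3, 9.08 and 9.83 CPM in the 4 serum-free libraries and 87.4, 108, 85.8 and 85.4 CPM in the 4 non-invasive libraries (log2 fold change 3.33, SE 0.25, edgeR adjusted p = 3.6e-11). CDK1 itself was at 15.9, 9.15, 13.3 and 12.6 CPM and then 79.8, 87.4, 71.3 and 76.9 CPM (log2 fold change 2.65, SE 0.21, edgeR adjusted p = 8.9e-11). For CKS2, a small subunit that binds CDK1, the values were 7.35, 7.04, 11.6 and 9.58 CPM and 53.3, 55.9, 48.4 and 40.2 CPM (log2 fold change 2.46, SE 0.24, edgeR adjusted p = 2.8e-09). In all 3 genes every non-invasive library lay above every serum-free library. Overlap of groups was not counted over all genes, here or below. It describes the values of single genes and adds no support to the calls. The largest rise of the role was that of CCNA2, cyclin A2, at 3.87 on the log2 scale. CDC25B, a phosphatase that activates CDK1 at mitotic entry, was the exception of the whole set, with 68.6, 69.2, 61.6 and 74.6 CPM in serum-free and 48.2, 46.8, 49.7 and 54.9 CPM in non-invasive libraries (log2 fold change -0.46, SE 0.17, edgeR adjusted p = 0.028). Its non-invasive libraries all lay below its serum-free ones.

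All 3 mitotic kinases rose. AURKA, the Aurora kinase of the centrosome and spindle, went from 7.35, 8.92, 6.81 and 6.55 CPM to 52.9, 55.0, 47.7 and 53.7 CPM (log2 fold change 2.81, SE 0.19, edgeR adjusted p = 5.8e-12), the smallest change of the 3. PLK1, the Polo-like kinase that acts from mitotic entry to cytokinesis, went from 2.04, 3.28, 3.97 and 2.02 CPM to 38.5, 39.6, 42.4 and 40.4 CPM (log2 fold change 3.79, SE 0.29, edgeR adjusted p = 2.7e-11). Neither gene had overlapping groups. NEK2, a centrosomal kinase, had the largest log2 fold change of the 3, 3.86 (SE 0.49).

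The chromosomal passenger complex, which corrects faulty attachments at the centromere, rose in all 4 subunits and held the largest fold change of the set. That was its kinase AURKB at 4.61 (SE 0.31), and the smallest of the 4 was its scaffold INCENP at 1.77 (SE 0.28). BIRC5, the survivin subunit, was at 8.58, 8.45, 9.08 and 4.03 CPM in serum-free and 164, 183, 154 and 132 CPM in non-invasive libraries (log2 fold change 4.40, SE 0.24, edgeR adjusted p = 7.7e-14). The lowest non-invasive value lay far above the highest serum-free one.

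Spindle assembly checkpoint genes rose in 5 of 5. BUB1B, which encodes the checkpoint protein BUBR1, was at 3.27, 4.46, 2.55 and 3.53 CPM and then 35.2, 40.8, 30.8 and 31.7 CPM (log2 fold change 3.30, SE 0.23, edgeR adjusted p = 7.1e-12). MAD2L1, which encodes the CDC20 inhibitor MAD2, was at 6.54, 5.63, 6.24 and 3.78 CPM and then 36.5, 45.9, 29.4 and 29.8 CPM (log2 fold change 2.69, SE 0.27, edgeR adjusted p = 5.8e-09). Both had groups that did not overlap. The range of the role was wide, from 0.73 for BUB3 to 3.48 for the kinase TTK.

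Centromere and kinetochore genes rose in 5 of 5, from 1.82 on the log2 scale for NDC80, which holds microtubules, to 4.12 for CENPA, the histone of the centromere. CENPF, a large kinetochore protein, was at 56.8, 64.8, 62.4 and 60.0 CPM in serum-free libraries and 303, 379, 343 and 333 CPM in non-invasive libraries (log2 fold change 2.47, SE 0.17, edgeR adjusted p = 4.0e-12). No serum-free library came near the non-invasive level.

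All 8 mitotic kinesins, the motors that move chromosomes and spindle microtubules, rose. KIF18A, which dampens chromosome movements at the metaphase plate, was at 3.27, 1.17, 1.70 and 2.27 CPM and then 7.84, 9.08, 6.02 and 11.1 CPM (log2 fold change 2.06, SE 0.32, edgeR adjusted p = 5.2e-06). KIF20A, a motor of the central spindle, was at 3.27, 0.235, 1.13 and 2.02 CPM and then 17.5, 14.4, 8.47 and 7.50 CPM (log2 fold change 2.95, SE 0.55, edgeR adjusted p = 9.4e-05). Both are low in these libraries, and their groups still did not overlap. The extremes of the role were KIF20B at 1.32 and KIF23, a subunit of the centralspindlin complex that positions the cleavage furrow, at 3.81.

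Of the 10 spindle and microtubule-associated genes 9 rose. TPX2, which activates AURKA on the spindle, was at 34.7, 28.4, 34.3 and 34.8 CPM and then 185, 196, 163 and 179 CPM (log2 fold change 2.45, SE 0.19, edgeR adjusted p = 3.8e-11). The highest change was in PRC1, which bundles the microtubules of the central spindle, at 3.75. CKAP2, a microtubule-binding protein, was the one gene of the set with no call: its values were 90.7, 82.3, 85.1 and 86.7 CPM and 109, 103, 98.97 and 111 CPM (log2 fold change 0.29, SE 0.14, edgeR adjusted p = 0.079), with every non-invasive value above every serum-free value.

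Cytokinesis, exit and chromosome structure genes all rose. ANLN, the anillin of the contractile ring, was at 10.2, 12.4, 11.3 and 8.07 CPM and then 132, 152, 121 and 119 CPM (log2 fold change 3.63, SE 0.22, edgeR adjusted p = 5.9e-13), while ECT2, the exchange factor that activates RhoA at the furrow, rose by 1.83. CDC20, the APC/C activator, was at 5.31, 3.99, 3.12 and 6.81 CPM and then 94.6, 109.7, 99.2 and 89.5 CPM (log2 fold change 4.35, SE 0.21, edgeR adjusted p = 7.4e-15). This was the highest fold change among the exit genes, and CDCA3 had the lowest at 2.59. UBE2C, the ubiquitin-conjugating enzyme of the APC/C, was at 4.90, 5.63, 5.67 and 3.53 CPM and then 81.1, 75.9, 66.2 and 65.1 CPM (log2 fold change 3.86, SE 0.21, edgeR adjusted p = 5.6e-14). MKI67, which encodes the Ki-67 protein used to score proliferation, was at 30.6, 25.6, 23.8 and 28.5 CPM and then 317, 401, 331 and 354 CPM (log2 fold change 3.70, SE 0.23, edgeR adjusted p = 7.6e-12). TOP2A, the topoisomerase that untangles sister chromatids, was at 51.1, 63.6, 62.1 and 49.2 CPM and then 486, 525, 496 and 522 CPM (log2 fold change 3.16, SE 0.19, edgeR adjusted p = 9.5e-13). None of these groups overlapped, in a comparison where 50% of all genes were called and overlap over all genes was not counted.

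Further genes of the pathway that are not in the set were read in the same fit. Of 25 other G2/M genes 23 rose and 1 fell, led by FAM83D at 4.34 (SE 0.51, edgeR adjusted p = 9.8e-08) and CEP55 at 4.27 (SE 0.24, edgeR adjusted p = 1.1e-13). Of 31 other kinetochore and centromere genes 28 rose, with the centromere histone chaperone HJURP at 4.35 (SE 0.39, edgeR adjusted p = 6.6e-10). Condensin and cohesin genes rose in 11 of 14 and fell in 2. The APC/C subunits rose in 4 of 16 and fell in 1. Of all genes tested 25.3% were called higher and 24.7% lower, so the number of APC/C subunits that rose is near the background. Among 19 transcription regulators of these genes 9 rose and 3 fell, with MYBL2, the gene of B-MYB, at 4.12 (SE 0.25, edgeR adjusted p = 6.9e-13) and E2F7 at 3.59 (SE 0.38, edgeR adjusted p = 2.4e-08).

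Kyse30 gave the same comparison with smaller values. The set rose in 22 of 51 genes and fell in none (edgeR, over 11976 genes), where 12.9% of all genes were called, 8.10% higher and 4.76% lower. All 51 log2 fold changes were positive, with a median of 1.15 against 0.03 over all genes. The summed level was 1054, 769, 940.4 and 1127 CPM in the serum-free and 1481, 2035, 2043 and 2606 CPM in the non-invasive libraries. Without the shallow library, which belongs to neither group but enters the shared estimate of the spread, 35 genes were called higher (27.8% of all genes called), and without the 3 libraries that stand apart 38 were (23.6% of all genes). All 22 genes were among those called in both of these fits. Leaving out a library of the groups compared gave 9 to 19 genes, with 14, 13 and 9 without non-invasive replicate 2, 3 or 4, and 10 and 11 without serum-free replicate 2 or 3. The set took 0.127% and 0.167% of the counts in non-invasive replicates 1 and 3, the libraries with much MALAT1, against 0.207% and 0.255% in replicates 2 and 4. Mitochondrial genes took 17.4% and 19.3% of counts in replicates 1 and 3, and 22.0% on average in the serum-free group. Their part in the result was not tested.

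No cyclin or CDK1 regulator was called in Kyse30 with all libraries. CDK1 was at 18.7, 14.1, 17.7 and 24.2 CPM in serum-free and 21.1, 29.0, 31.2 and 39.2 CPM in non-invasive libraries (log2 fold change 0.70, SE 0.46, edgeR adjusted p = 0.37). CCNB1 was at 14.7, 14.1, 14.9 and 16.1 CPM in serum-free and 20.1, 37.7, 19.6 and 35.8 CPM in non-invasive libraries (log2 fold change 0.93, SE 0.41, edgeR adjusted p = 0.14). The non-invasive libraries of CCNB1 lay above all serum-free ones, while those of CDK1 overlapped. For CKS2 the values were 39.9, 18.6, 36.2 and 31.4 CPM in serum-free and 50.02, 37.9, 26.6 and 48.7 CPM in non-invasive libraries (log2 fold change 0.38, SE 0.47, edgeR adjusted p = 0.67), with overlapping groups. Without the shallow library CDK1 reached 0.70 (SE 0.26, edgeR adjusted p = 0.043) and CCNB1 0.94 (SE 0.25, edgeR adjusted p = 0.0055).

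AURKA and PLK1 rose. AURKA was at 8.43, 5.46, 3.54 and 8.05 CPM in serum-free and 11.6, 22.5, 10.8 and 26.8 CPM in non-invasive libraries (log2 fold change 1.51, SE 0.48, edgeR adjusted p = 0.037), and PLK1 at 5.13, 0.643, 6.68 and 1.27 CPM in serum-free and 18.6, 10.8, 10.0 and 15.1 CPM in non-invasive libraries (log2 fold change 1.99, SE 0.58, edgeR adjusted p = 0.024). Their groups did not overlap. In the passenger complex 3 of 4 genes were called, and CDCA8, the borealin subunit, had the largest change, 2.45 (SE 0.46). BIRC5 was at 21.6, 12.9, 11.0 and 27.1 CPM in serum-free and 31.5, 51.8, 54.7 and 78.4 CPM in non-invasive libraries (log2 fold change 1.58, SE 0.49, edgeR adjusted p = 0.033).

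BUB1B was the one checkpoint gene called and had the largest log2 fold change of the whole set in this line. It was at 2.20, 0.964, 2.75 and 0 CPM in serum-free and 9.12, 9.10, 16.6 and 13.3 CPM in non-invasive libraries (log2 fold change 2.98, SE 0.54, edgeR adjusted p = 4.9e-04). Its serum-free values rest on few reads. MAD2L1, by contrast, was at 9.16, 2.57, 1.57 and 3.81 CPM in serum-free and 6.61, 6.50, 2.69 and 7.44 CPM in non-invasive libraries (log2 fold change 0.46, SE 0.57, edgeR adjusted p = 0.68), with groups that overlapped.

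Kinetochore genes were called in 3 of 5 (CENPE, CENPF and NDC80). CENPF was at 54.2, 63.3, 72.3 and 83.0 CPM in serum-free and 78.3, 125, 179 and 186 CPM in non-invasive libraries (log2 fold change 1.06, SE 0.31, edgeR adjusted p = 0.026), where non-invasive replicate 1 lay below the highest serum-free library. CENPE, the kinetochore motor, had a larger log2 fold change of 2.21 (SE 0.32). Of 8 kinesins only KIF4A was called, at 1.78 (SE 0.49). KIF18A was at 2.20, 6.10, 2.36 and 2.54 CPM in serum-free and 6.61, 6.93, 4.62 and 3.38 CPM in non-invasive libraries (log2 fold change 0.68, SE 0.52, edgeR adjusted p = 0.45). KIF20A was at 7.69, 5.46, 6.68 and 3.39 CPM in serum-free and 6.29, 10.6, 12.7 and 12.8 CPM in non-invasive libraries (log2 fold change 0.86, SE 0.54, edgeR adjusted p = 0.34). The groups overlapped in both.

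Spindle genes were called in 6 of 10, with SPAG5, a spindle pole protein, highest at 2.59 (SE 0.61). TPX2 was at 43.6, 30.2, 33.8 and 53.8 CPM in serum-free and 76.4, 112, 97.0 and 149 CPM in non-invasive libraries (log2 fold change 1.43, SE 0.46, edgeR adjusted p = 0.038), with no overlap. CKAP2 was at 16.5, 13.5, 11.0 and 31.8 CPM in serum-free and 16.0, 30.3, 18.1 and 34.0 CPM in non-invasive libraries (log2 fold change 0.45, SE 0.46, edgeR adjusted p = 0.59), with overlap. Both cytokinesis genes were called. ANLN was at 15.8, 5.46, 22.0 and 8.47 CPM in serum-free and 41.8, 61.5, 62.0 and 71.0 CPM in non-invasive libraries (log2 fold change 2.20, SE 0.49, edgeR adjusted p = 0.0034), and its groups did not overlap.

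Among the exit genes CDC20 and PTTG1, which encodes securin, were called. CDC20 was at 18.3, 3.21, 18.9 and 6.36 CPM in serum-free and 24.2, 41.4, 40.4 and 48.0 CPM in non-invasive libraries (log2 fold change 1.72, SE 0.53, edgeR adjusted p = 0.031). UBE2C was at 17.2, 8.03, 11.8 and 8.90 CPM in serum-free and 21.1, 31.4, 15.8 and 33.4 CPM in non-invasive libraries (log2 fold change 1.15, SE 0.49, edgeR adjusted p = 0.13), and one non-invasive value lay below the highest serum-free one. MKI67 was at 46.9, 44.7, 52.7 and 108 CPM in serum-free and 84.3, 106, 189 and 190.0 CPM in non-invasive libraries (log2 fold change 1.18, SE 0.27, edgeR adjusted p = 0.0045), and TOP2A at 129.7, 76.1, 84.9 and 123 CPM in serum-free and 131, 250.4, 239 and 323 CPM in non-invasive libraries (log2 fold change 1.19, SE 0.34, edgeR adjusted p = 0.022). Both were called although serum-free replicate 4 of MKI67 overlapped the lower non-invasive libraries.

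The other pathway lists had the following calls in Kyse30. Of 25 other G2/M genes 8 rose, with DEPDC1B at 3.21 (SE 0.91, edgeR adjusted p = 0.020) and GAS2L3 at 2.32 (SE 0.63, edgeR adjusted p = 0.015). Other kinetochore genes rose in 3 of 31 and fell in 1, condensin and cohesin genes rose in 2 of 14, and the APC/C subunits had 1 call in each direction among 16. Of all genes 8.10% were called higher and 4.76% lower, so the kinetochore and APC/C counts are near the background. None of the 19 transcription regulators was called with edgeR, and their median log2 fold change was -0.52.

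**Figure D3:**
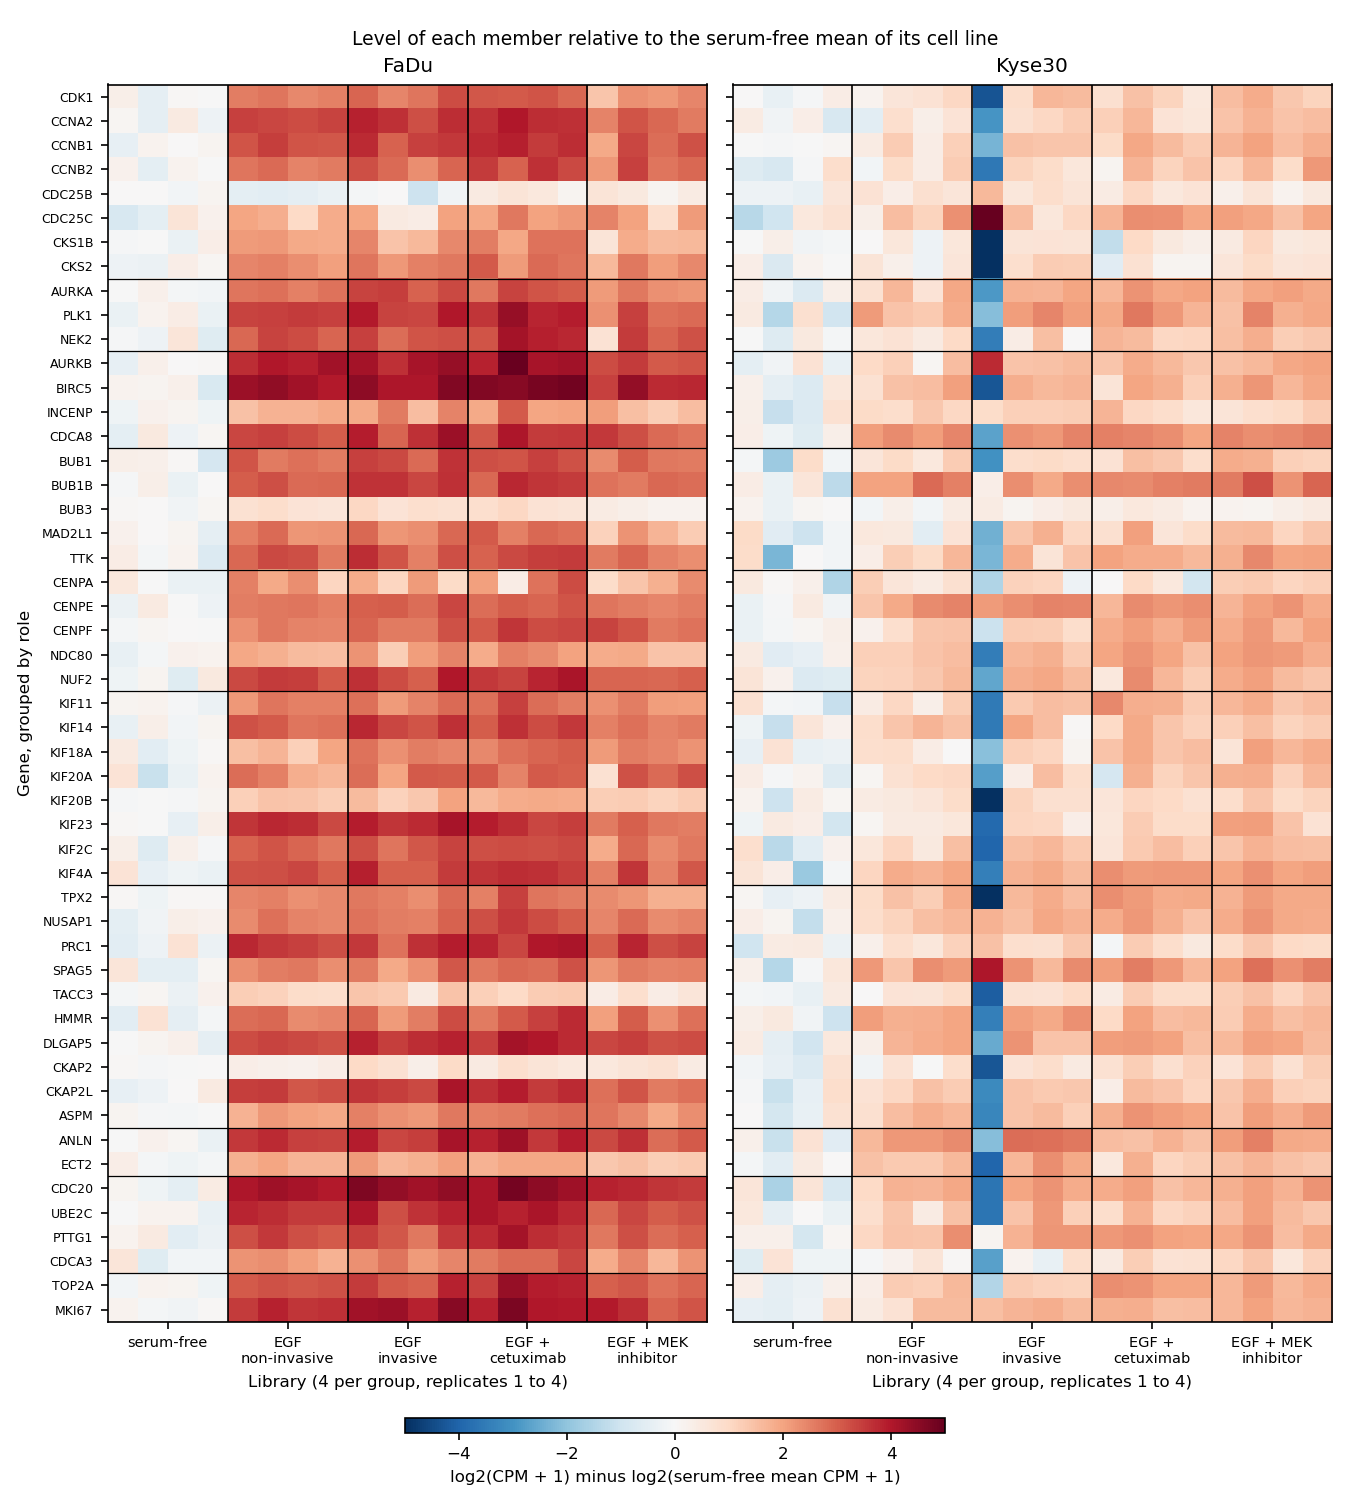
Level of each of the 51 genes (rows, ordered by role, with lines between roles) in each of 20 libraries of FaDu (left) and Kyse30 (right), as log2(CPM + 1) minus log2 of the serum-free mean + 1 of the same line (colour scale from -5 to 5, red higher). FaDu EGF libraries are red in nearly all rows, CDC25B, BUB3 and CKAP2 being the palest, and the mostly blue column in Kyse30 invasive cells is the shallow library with 446 counts on the set, in which CDC25C, AURKB and SPAG5 are the reddest.

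Whether non-invasive EGF cells differed from serum-free spheroids to the same extent in the 2 lines was tested directly, by subtracting the FaDu log2 fold change from that of Kyse30 in 1 fit of 40 libraries. The difference was called in 30 of the 51 genes: 29 had a smaller log2 fold change in Kyse30 and 1 a larger one. Of 12652 genes tested 15.7% were called in this test, 9.48% larger and 6.20% smaller in Kyse30. The median difference of the set was -1.79, against 0.08 over all genes. The libraries are those of the within-line comparisons above.

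AURKB had the largest difference, log2 difference -3.44, SE 0.59, edgeR adjusted p = 5.3e-05. KIF23 and CCNA2 followed closely, at -3.38 (SE 0.49) and -3.36 (SE 0.55). Among the genes given by library, the difference was called for CDK1 (-1.93), CCNB1 (-2.38), CKS2 (-2.08), BIRC5 (-2.80), MAD2L1 (-2.20), CENPF (-1.41), CDC20 (-2.61), UBE2C (-2.69), TOP2A (-1.96) and MKI67 (-2.51). Among the cyclins and CDK1 regulators 6 of 8 genes of the role had a smaller effect in Kyse30. CDC25B, at a log2 difference of 1.12, SE 0.32, edgeR adjusted p = 0.013, was the only gene called with a larger effect in Kyse30, where it was not called within the line, and it fell in FaDu.

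Other genes had smaller differences with no call. BUB1B differed by -0.32 (95% interval -1.53 to 0.90), CENPE by -0.42 (95% interval -1.08 to 0.23), ECT2 by -0.32 (95% interval -1.23 to 0.59) and SPAG5 by -0.17 (95% interval -1.64 to 1.30). All 4 intervals include both 0 and -1, and none reaches the median difference of the set. Without the 3 Kyse30 libraries that stand apart 32 genes were called, and with limma-voom 18.

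**Figure D4:**
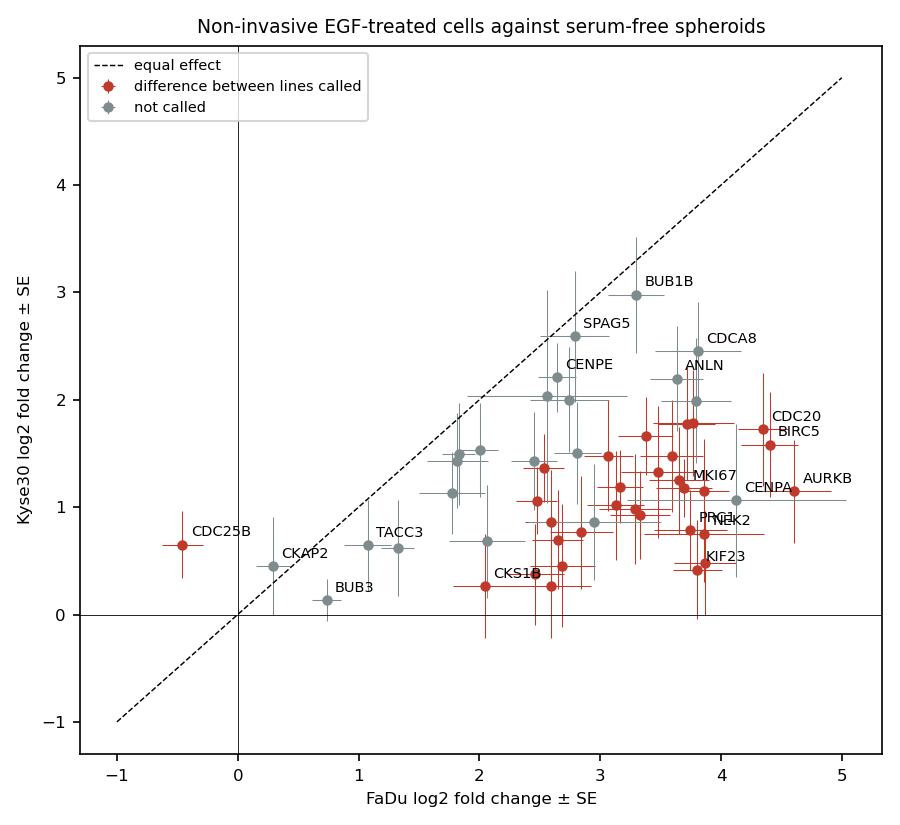
Log2 fold change of non-invasive EGF cells against serum-free spheroids for each of the 51 genes in FaDu (horizontal axis) and Kyse30 (vertical axis), with SE bars; red points have a called difference between lines (30 genes), grey points do not, and the dashed line marks equal effects. Most genes lie below the line, BUB1B, SPAG5 and CENPE lie close to it, and CDC25B lies left of 0 on the FaDu axis.

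The starting levels also differed between lines. The serum-free libraries compared here also enter the test of a difference between lines above, so the 2 results are not independent. In serum-free spheroids 28 of the 51 genes were called between Kyse30 and FaDu, 21 higher and 7 lower in Kyse30 (edgeR, 1 fit of 40 libraries), against 43.5% of all genes called, 21.5% higher and 22.0% lower. The median log2 difference was 0.63, against 0.01 over all genes. All 4 exit genes and both TOP2A and MKI67 were higher in Kyse30: CDC20 by 1.26 (SE 0.44, edgeR adjusted p = 0.019) and MKI67 by 1.20 (SE 0.26, edgeR adjusted p = 2.1e-04). CKS2 was higher by 1.80 (SE 0.40, edgeR adjusted p = 2.7e-04) and BIRC5 by 1.26 (SE 0.42, edgeR adjusted p = 0.013). The largest value was that of NEK2, 2.91 (SE 0.56, edgeR adjusted p = 3.6e-05), a gene with 1.23, 0.938, 2.55 and 0.504 CPM in the FaDu serum-free libraries. The genes lower in Kyse30 were CDC25B, BUB1B, CENPE, NUSAP1, SPAG5, CKAP2 and ECT2. Most extreme among these was CKAP2 at -2.27 (SE 0.31, edgeR adjusted p = 1.1e-07), followed by ECT2 at -1.54 (SE 0.33, edgeR adjusted p = 1.6e-04) and CDC25B at -1.51 (SE 0.23, edgeR adjusted p = 1.0e-06). On the scale of this fit the CKAP2 values were 90.5, 82.2, 85.0 and 86.5 CPM in FaDu and 16.5, 13.2, 10.9 and 31.3 CPM in Kyse30, so the lines did not overlap. CDK1 (0.54, SE 0.36, edgeR adjusted p = 0.23), CENPF (0.14, SE 0.26, edgeR adjusted p = 0.69) and KIF11 (0.02, SE 0.38, edgeR adjusted p = 0.98) had no call. Line, culture and library preparation cannot be told apart here. With limma-voom 17 genes were called, and 18 with these 2 groups alone.

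Invasive and non-invasive cells of the same EGF-treated spheroids differed little in the set. In FaDu 3 of 51 genes were higher in the invasive cells and none lower, where 3.00% of all genes were called, 0.659% higher and 2.34% lower. The median log2 fold change was 0.22 against -0.01 over all genes, and 48 of 51 values were positive. KIF18A was at 19.2, 14.1, 17.4 and 16.0 CPM in the invasive libraries, against 7.84, 9.08, 6.02 and 11.1 CPM in the non-invasive ones (log2 fold change 0.97, SE 0.25, edgeR adjusted p = 0.032). AURKA was at 86.9, 91.2, 64.8 and 80.8 CPM against 52.9, 55.0, 47.7 and 53.7 CPM (log2 fold change 0.63, SE 0.16, edgeR adjusted p = 0.030). Neither gene had overlapping groups. CKAP2 was at 172, 146, 105 and 167 CPM against 109, 103, 98.97 and 111 CPM (log2 fold change 0.48, SE 0.14, edgeR adjusted p = 0.049), and invasive replicate 3 lay among the non-invasive values.

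Mitochondrial genes took 11.4% of counts on average in the invasive and 9.37% in the non-invasive FaDu libraries, and their part was not tested. Those 3 calls are close to the threshold. Leaving out 1 library gave 0 to 4 called genes, with 0 when non-invasive replicate 1, 2 or 3 or invasive replicate 1 or 4 was left out and 1 without non-invasive replicate 4 or invasive replicate 2. The fit of all 40 libraries gave 0, and DESeq2 and a fit of these 2 groups alone gave 6 each. BUB1B, at 53.4, 52.9, 44.0 and 54.3 CPM in invasive libraries, did not overlap the non-invasive values and had no call (log2 fold change 0.56, SE 0.18, edgeR adjusted p = 0.090). MKI67 was at 513, 543, 404 and 659 CPM (log2 fold change 0.60, SE 0.20, edgeR adjusted p = 0.12), also above every non-invasive library. CCNB1 was at 132, 76.4, 104 and 113 CPM (log2 fold change 0.22, SE 0.21, edgeR adjusted p = 0.66) and TOP2A at 653, 478, 438 and 828 CPM (log2 fold change 0.24, SE 0.17, edgeR adjusted p = 0.53). In both, invasive replicates lay on either side of the non-invasive ones, replicates 1 and 4 being high. The lowest value of the set was CENPA at -0.60 (SE 0.62), a gene with very few reads. Of the other G2/M, kinetochore, condensin, APC/C and regulator lists only FOXM1 (0.72, SE 0.20, edgeR adjusted p = 0.049) and GTSE1 (0.73, SE 0.15, edgeR adjusted p = 0.0064) were called, both higher.

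In Kyse30 no gene of the set was called between invasive and non-invasive cells with edgeR, where 0.409% of all genes were, 0.0668% higher and 0.342% lower. An unadjusted p under 0.05 was reached by 2 genes, and DESeq2 and limma-voom also called 0. The median log2 fold change was 0.09, but the median over all genes was shifted to -0.15 with the shallow library in the group. Without it the medians were 0.27 and -0.04. The unadjusted p was then under 0.05 for 7 genes, and 0 were called. CDC25C (2.21, SE 0.88) and AURKB (1.29, SE 0.47) had the highest values, and in both the shallow library was the outlying one: AURKB was at 127, 24.6, 25.2 and 27.4 CPM and CDC25C at 129, 6.53, 2.85 and 4.40 CPM. For MKI67 the invasive values were 180.4, 209, 221 and 193 CPM, and for CCNB1 2.15, 42.6, 40.7 and 40.6 CPM. With the shallow library in the group, intervals were wide, as for CCNB1 at 0.26 (95% interval -0.59 to 1.10) and CDK1 at 0.46 (95% interval -0.50 to 1.42), so changes of up to about that size are not excluded. The difference between lines was called for none of the 51 genes with edgeR (3 at an unadjusted p under 0.05, 0 with DESeq2 and limma-voom), where 0.182% of all genes were called, 0.142% larger and 0.0395% smaller in Kyse30.

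With cetuximab added to EGF the set stayed above its serum-free level in both lines. In FaDu all 51 log2 fold changes against non-invasive EGF cells were positive. Of these 10 were called higher and none lower, where 8.56% of all genes were called, 3.64% higher and 4.93% lower. The median was 0.46 against 0.05 over all genes. The mean mitochondrial share was 8.38% with cetuximab and 10.9% with the MEK inhibitor, against 9.37% in non-invasive cells, and its part was not tested. Over the same libraries DUSP6, a phosphatase gene induced by ERK signalling, fell by 2.03 on the log2 scale (SE 0.27, edgeR adjusted p = 4.4e-05), and it stayed above its serum-free level by 3.44 (SE 0.32, edgeR adjusted p = 4.3e-08).

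KIF18A had the largest change. It was at 15.2, 20.2, 22.5 and 24.4 CPM with cetuximab, all above the non-invasive values given earlier (log2 fold change 1.27, SE 0.25, edgeR adjusted p = 0.0012). CDC25B, lower in non-invasive EGF cells than in serum-free spheroids, was at 92.8, 109, 98.0 and 76.3 CPM (log2 fold change 0.91, SE 0.17, edgeR adjusted p = 6.8e-04), above both its non-invasive and its serum-free libraries. CENPF was at 519, 746, 592 and 621 CPM (log2 fold change 0.87, SE 0.16, edgeR adjusted p = 4.3e-04) and TOP2A at 608, 1174, 871 and 827 CPM (log2 fold change 0.78, SE 0.17, edgeR adjusted p = 0.0041), again with no overlap. The remaining calls were CCNB2, a cyclin B, at 0.72 (SE 0.21), KIF20B at 0.50 (SE 0.14), CDCA3 at 0.88 (SE 0.26), and the spindle genes NUSAP1, DLGAP5 and ASPM at 0.78, 0.59 and 0.72.

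No kinase, passenger complex, checkpoint or cytokinesis gene was called. CDK1 was at 118, 114, 122 and 101 CPM (log2 fold change 0.53, SE 0.18, edgeR adjusted p = 0.074) and CCNB1 at 132, 146, 112 and 126 CPM (log2 fold change 0.49, SE 0.20, edgeR adjusted p = 0.15), all above the non-invasive libraries of the same gene. TPX2 was at 195, 365, 216 and 198 CPM and MKI67 at 409, 737, 446 and 436 CPM, with replicate 2 standing apart in both. The smallest values were those of KIF23 (0.03), BUB3 (0.08) and ECT2 (0.09). Leaving out 1 library gave 6 to 11 called genes, with 6 without cetuximab replicate 3 or non-invasive replicate 1 or 4, and the fit of all 40 libraries gave 4. Non-invasive EGF cells were selected by position and cetuximab cells were not, which cannot be told apart from the antibody.

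Against serum-free spheroids, both unselected, all 51 genes were higher with EGF and cetuximab in FaDu, where 43.8% of all genes were called, 22.7% higher and 21.1% lower. The median was 3.51 against -0.01 over all genes, from 0.45 (SE 0.17) for CDC25B to 4.98 (SE 0.30) for AURKB. The serum-free libraries are those of the earlier comparison. Among the other lists, with cetuximab against non-invasive cells, 5 of 25 G2/M genes rose, led by DEPDC1 at 1.24 (SE 0.22, edgeR adjusted p = 3.3e-04), as did 3 of 31 kinetochore genes and 5 of 19 regulators, with FOXM1 at 0.78 (SE 0.20, edgeR adjusted p = 0.014). None of these 3 lists had a call in the other direction. Of all genes 3.64% were called higher and 4.93% lower with cetuximab against non-invasive cells.

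In Kyse30 no gene was called between cetuximab and non-invasive cells with edgeR, where 4.93% of all genes were called, 1.85% higher and 3.08% lower. Of the 51 genes 4 had an unadjusted p under 0.05, and DESeq2 called 4 and limma-voom 2. Without the shallow library 4 genes were higher (17.1% of all genes called, 7.37% higher): CENPF at 0.93 (SE 0.20, edgeR adjusted p = 0.0019), KIF11 at 1.08 (SE 0.30, edgeR adjusted p = 0.013), TPX2 at 0.65 (SE 0.19, edgeR adjusted p = 0.016) and TOP2A at 0.96 (SE 0.20, edgeR adjusted p = 0.0015). With the 3 libraries that stand apart left out, 2 of these, CENPF and TOP2A, were called. In that fit 9.73% of all genes were called, 3.80% higher, so the number called is near the background. The number called without the shallow library alone is near it too, with 7.37% of all genes called higher there. CENPF was at 247, 298, 241 and 298 CPM and TOP2A at 519.9, 494, 413 and 409.9 CPM with cetuximab, above every non-invasive library of either gene. ANLN was lower in value, at 39.4, 37.7, 45.5 and 37.8 CPM (log2 fold change -0.56, SE 0.45, edgeR adjusted p = 0.57). DUSP6 did not fall with cetuximab in this line (log2 fold change 0.35, SE 0.38, edgeR adjusted p = 0.69). It also had no call in non-invasive EGF cells against serum-free spheroids (log2 fold change 0.95, SE 0.39, edgeR adjusted p = 0.11).

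Against serum-free Kyse30 spheroids 18 genes were higher with cetuximab and none lower (3.13% of all genes called, 1.88% higher and 1.25% lower), 44 without the shallow library (15.1% of all genes called) and 45 without the 3. Mitochondrial genes took 22.0% of counts on average in the serum-free libraries and 11.6% with cetuximab, and their part was not tested. The median was 1.54 against 0.01 over all genes. BUB1B had the largest value, 3.07 (SE 0.54), and CKS2 the smallest, 0.20 (SE 0.47). The effect of cetuximab did not pass the test of a difference between lines for any of the 51 genes with edgeR (1 at an unadjusted p under 0.05, 0 with DESeq2 and limma-voom), where 1.31% of all genes did. The intervals stayed wide: CENPF differed by 0.11 (95% interval -0.62 to 0.84) and CDC25B by -0.79 (95% interval -1.43 to -0.15).

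With the MEK inhibitor the set had calls in both directions in FaDu. Against non-invasive EGF cells 9 genes were lower and 4 higher, where 29.7% of all genes were called, 14.8% higher and 14.9% lower, so the number called is near the background. The median was -0.22 against 0.03 over all genes, and 40 of 51 values were negative. DUSP6 fell by 5.42 on the log2 scale in the same libraries (SE 0.33, edgeR adjusted p = 2.3e-10).

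The lowest value was that of KIF23, at 76.6, 87.1, 84.3 and 63.9 CPM in non-invasive cells and 38.4, 50.96, 39.5 and 37.4 CPM with the inhibitor (log2 fold change -0.91, SE 0.17, edgeR adjusted p = 1.5e-04). MAD2L1 was at 13.7, 30.2, 20.3 and 14.7 CPM (log2 fold change -0.83, SE 0.23, edgeR adjusted p = 0.0080). The groups of KIF23 did not overlap, while MAD2L1 replicate 2 reached the lower non-invasive libraries. AURKB fell by 0.73 and CCNA2 by 0.58. UBE2C was at 42.3, 58.6, 47.1 and 52.8 CPM (log2 fold change -0.52, SE 0.16, edgeR adjusted p = 0.017), and CDC20 at 81.8, 77.5, 68.8 and 64.0 CPM (log2 fold change -0.43, SE 0.16, edgeR adjusted p = 0.041), both below every non-invasive library. BUB3, TACC3, which stabilises kinetochore fibres, and ECT2 made up the rest, at -0.47, -0.50 and -0.46.

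The 4 genes called higher were CDC25B, KIF18A, CENPF and ASPM, a spindle pole protein. All 4 were also called higher with cetuximab, a comparison that shares the non-invasive libraries. CDC25B was at 107, 97.8, 75.6 and 90.6 CPM (log2 fold change 0.89, SE 0.17, edgeR adjusted p = 2.3e-04), KIF18A at 12.7, 17.1, 15.7 and 13.8 CPM (log2 fold change 0.80, SE 0.25, edgeR adjusted p = 0.017), and CENPF at 637, 553, 371 and 407 CPM (log2 fold change 0.53, SE 0.15, edgeR adjusted p = 0.0099). ASPM changed by 0.38 (SE 0.14). CDC25B and KIF18A did not overlap with the non-invasive group. CENPF overlapped in replicate 3.

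PLK1, CDK1, CCNB1 and BIRC5 had negative values and no call. Their inhibitor libraries spread widely: PLK1 was at 17.6, 39.7, 24.6 and 26.6 CPM (log2 fold change -0.56, SE 0.22, edgeR adjusted p = 0.057), CDK1 at 34.9, 65.3, 61.4 and 74.7 CPM, CCNB1 at 35.9, 99.9, 68.4 and 90.0 CPM and BIRC5 at 89.5, 179, 113 and 115 CPM. Replicate 1 was the lowest library in all 4. It also had the fewest counts of its group, 2814487, and the most mitochondrial counts, 14.6%. MKI67, at 435, 365, 209 and 246 CPM (log2 fold change -0.16, SE 0.20, edgeR adjusted p = 0.58), was instead highest in replicate 1. Leaving out 1 library gave 8 to 17 called genes, with 8 without non-invasive replicate 1, and the fit of all 40 libraries gave 3. Of the other lists 3 of 25 G2/M genes fell and 2 rose, with TRIP13 at -1.30 (SE 0.26, edgeR adjusted p = 3.7e-04) and PKMYT1 at -1.14 (SE 0.23, edgeR adjusted p = 5.0e-04), and 5 of 31 kinetochore genes fell, with CENPO at -1.26 (SE 0.33, edgeR adjusted p = 0.0046). Of all genes 14.9% were called lower and 14.8% higher, so the G2/M and kinetochore counts are near that background or below it. Regulators fell in 4 of 19 and rose in 2, with E2F2 at -1.89 (SE 0.63, edgeR adjusted p = 0.023).

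**Figure D5:**
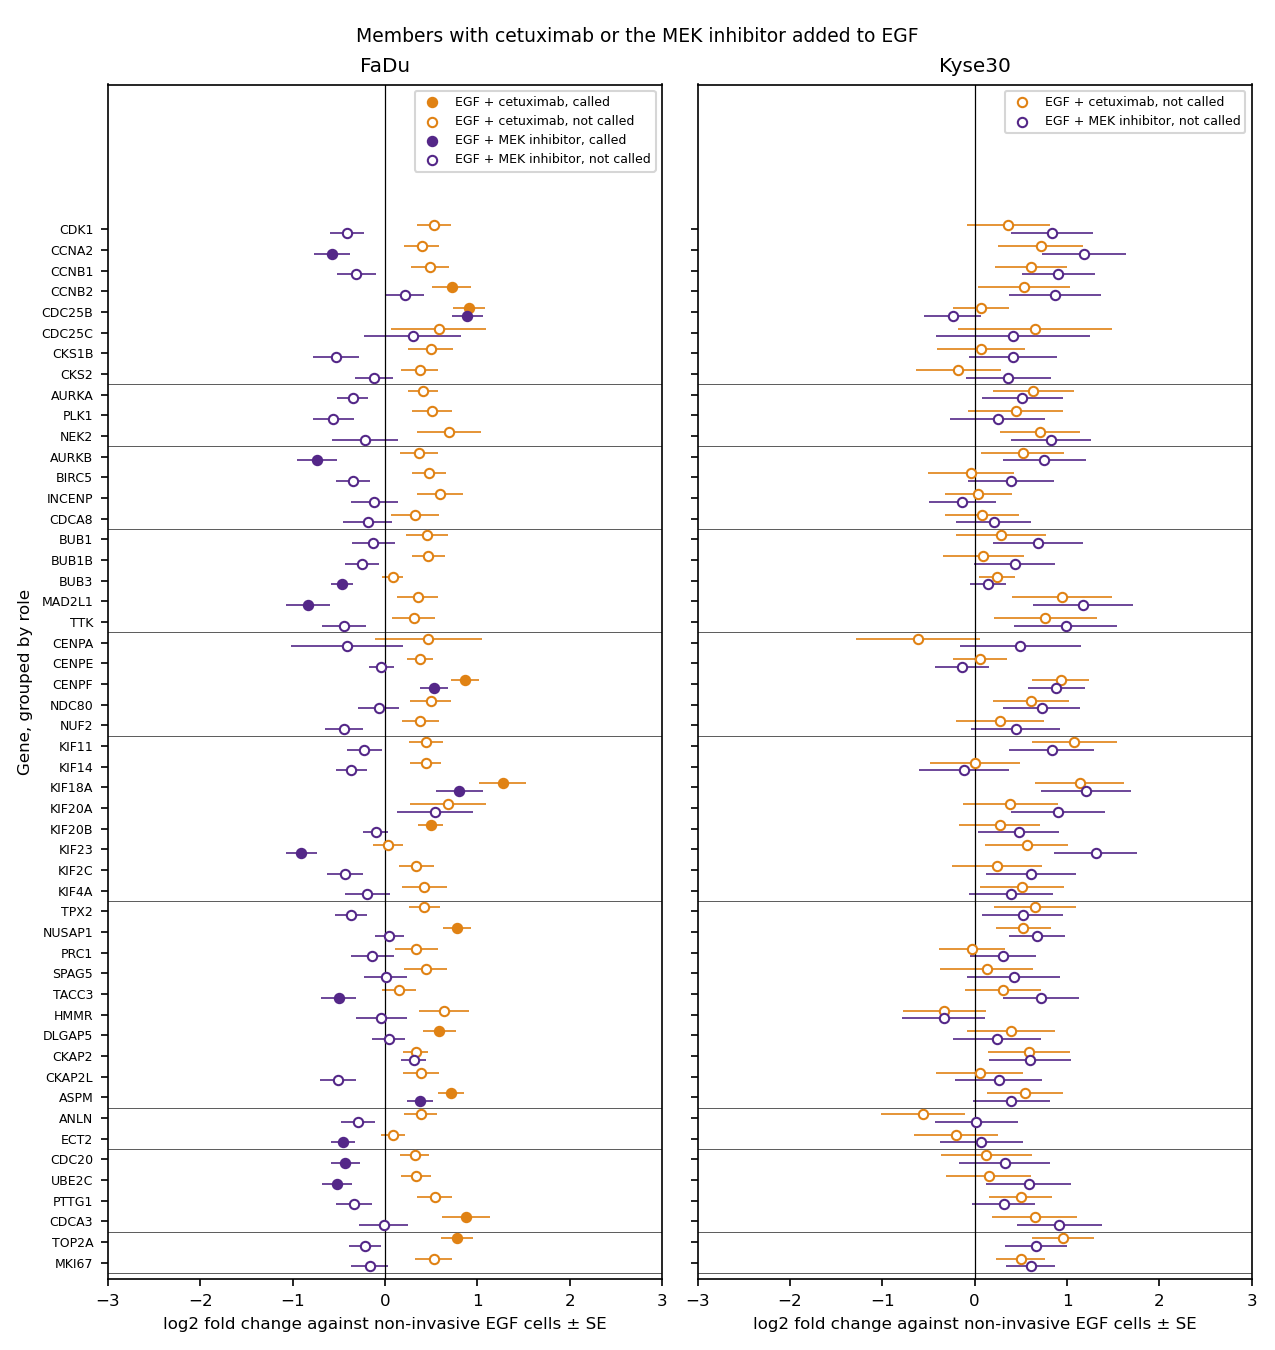
Log2 fold change (horizontal axis, with SE bars) of EGF with cetuximab (orange) and EGF with the MEK inhibitor (purple) against non-invasive EGF cells for each of the 51 genes (vertical axis, ordered by role) in FaDu (left) and Kyse30 (right); filled points were called at an adjusted p under 0.05. In FaDu all cetuximab values lie right of 0 and most MEK inhibitor values left of it, and in Kyse30 no point is filled.

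The comparison of the MEK inhibitor with cetuximab uses groups that both lack positional selection. In FaDu 33 of the 51 genes were lower with the MEK inhibitor and none higher, where 19.7% of all genes were called, 8.54% higher and 11.2% lower. The median was -0.71 against 0.00 over all genes, and all 51 values were negative. MAD2L1 had the largest difference, log2 fold change -1.19, SE 0.23, edgeR adjusted p = 5.5e-04, with 53.2, 36.9, 47.0 and 43.7 CPM under cetuximab and no overlap. AURKB (-1.10), PLK1 (-1.07), CKS1B (-1.03), TOP2A (-0.99), CCNA2 (-0.98), CDK1 (-0.94) and KIF23 (-0.94) were the next lowest. CDC25B (-0.02, 95% interval -0.37 to 0.34) and CKAP2 (-0.02, 95% interval -0.31 to 0.27) had the values nearest 0. CENPF, KIF18A and ASPM, called higher with both inhibitors against non-invasive cells, had no call between them. Leaving out 1 library gave 25 to 37 genes. The fit of all 40 libraries gave 8, and the fit of these 2 groups alone 23. Other G2/M genes were lower in 14 of 25 and other kinetochore genes in 17 of 31, with none higher. PKMYT1, an inhibitory kinase of CDK1, was at -1.63 (SE 0.23, edgeR adjusted p = 1.2e-05).

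The FaDu set stayed above its serum-free level with the MEK inhibitor. Higher calls numbered 49 of 51, where 19.4% of all genes were called, 10.8% higher and 8.63% lower. The median was 2.90 against 0.00 over all genes. The 2 genes with no call were CDC25B (log2 fold change 0.43, SE 0.17, edgeR adjusted p = 0.071) and BUB3 (log2 fold change 0.27, SE 0.12, edgeR adjusted p = 0.12). BIRC5 had the largest value, 4.06 (SE 0.23), and MKI67 was at 3.53 (SE 0.23). DUSP6, over the same libraries, was at 0.05 (SE 0.35, edgeR adjusted p = 0.94).

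In Kyse30 the MEK inhibitor values pointed the other way. Of the 51 genes 46 had a positive log2 fold change against non-invasive cells, with a median of 0.49 against -0.02 over all genes, but none was called with edgeR, where 4.56% of all genes were, 1.65% higher and 2.91% lower. An unadjusted p under 0.05 was reached by 8 genes, and DESeq2 called 6 and limma-voom 1. Without the shallow library 9 genes were higher and none lower (14.4% of all genes called, 5.84% higher): CDK1, CCNA2, CCNB1, CENPF, NDC80, KIF18A, KIF23, TACC3 and TOP2A. KIF23 had the largest, 1.31 (SE 0.30, edgeR adjusted p = 0.0030), and CCNA2 followed at 1.18 (SE 0.34, edgeR adjusted p = 0.018). Leaving out the 3 libraries that stand apart, which removes the non-invasive replicates with the lowest shares of the set, left CENPF and KIF23. Of all genes 9.78% were called in that fit, 3.94% higher, so the number called is near the background. DUSP6 fell by 2.01 in this line (SE 0.40, edgeR adjusted p = 0.0029).

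KIF23 was at 14.8, 19.3, 18.9 and 20.5 CPM in non-invasive libraries and 59.6, 60.8, 38.7 and 23.4 CPM with the inhibitor, with no overlap. CCNB1 was at 50.6, 63.2, 45.4 and 54.8 CPM (0.91, 95% interval 0.07 to 1.74) and CDK1 at 56.1, 69.9, 48.8 and 41.1 CPM (0.84, 95% interval -0.12 to 1.79). MAD2L1 was at 15.0, 15.3, 10.1 and 12.9 CPM, and like CCNB1 and CDK1 it lay above its non-invasive libraries in every replicate. BIRC5 was at 64.7, 88.1, 59.7 and 72.7 CPM, UBE2C at 35.3, 51.2, 36.6 and 30.4 CPM and PLK1 at 11.3, 23.6, 14.3 and 15.9 CPM, all 3 overlapping the non-invasive values. Other lists had no call among the G2/M, kinetochore, condensin and APC/C genes with edgeR, and among the regulators E2F1 (1.59, SE 0.43, edgeR adjusted p = 0.032) and MYBL2 (1.56, SE 0.32, edgeR adjusted p = 0.0035) rose.

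The difference of the MEK inhibitor effect between lines was called for 4 genes, where 5.10% of all genes were called, 2.27% larger and 2.83% smaller in Kyse30. KIF23 differed most, log2 difference 2.23, SE 0.45, edgeR adjusted p = 0.0012, followed by MAD2L1 (log2 difference 2.01, SE 0.55, edgeR adjusted p = 0.022) and CCNA2 (log2 difference 1.76, SE 0.47, edgeR adjusted p = 0.018). In these 3 the FaDu value was negative and the Kyse30 value positive. CDC25B differed in the other direction, log2 difference -1.11, SE 0.32, edgeR adjusted p = 0.030. The median difference of the set was 0.75 against -0.05 over all genes, and 47 of 51 were positive. Without the shallow library 14 genes were called, without the 3 libraries 7, and with DESeq2 10. The share of all genes called in these other fits is not given here. A larger count there cannot be read as a stronger result for the set. Between the MEK inhibitor and cetuximab the difference between lines was called for KIF23 alone, log2 difference 1.66, SE 0.44, edgeR adjusted p = 0.048, where 1.04% of all genes were called. That call was absent with limma-voom and with a replicate block (0 genes each). Without the shallow library 9 genes were called, a count also given without the share of all genes.

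Within Kyse30 no gene was called between the MEK inhibitor and cetuximab with edgeR, DESeq2 or limma-voom, and 0 had an unadjusted p under 0.05, where 1.18% of all genes were called. The median was 0.20 against -0.01. Intervals for single genes were broad, as for MKI67 at 0.11 (95% interval -0.45 to 0.67) and PLK1 at -0.19 (95% interval -1.28 to 0.89). Against serum-free spheroids 29 genes were higher with the MEK inhibitor and none lower (3.90% of all genes called, 2.29% higher and 1.61% lower), and 47 without the shallow library (15.4% of all genes called). The mean mitochondrial share was 11.5% with the MEK inhibitor against 22.0% in serum-free libraries, and its part was not tested. Leaving out a library of the groups compared gave 10 to 26 genes, with 19, 10, 14 and 18 without MEK inhibitor replicate 1, 2, 3 or 4 and 13 and 17 without serum-free replicate 2 or 3. The median was 1.77 against 0.01. BUB1B again had the largest value, log2 fold change 3.41, SE 0.54, edgeR adjusted p = 8.7e-04. CCNB1, with no call in non-invasive cells, was called here, log2 fold change 1.84, SE 0.41, edgeR adjusted p = 0.012, and so was MKI67, log2 fold change 1.79, SE 0.27, edgeR adjusted p = 7.9e-04. The serum-free libraries are shared with the earlier comparisons of this line.

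Counts of near-identical copies cannot be separated by these files. PTTG1, KIF4A, CCNB1 and CKS1B have retrocopies or pseudogenes in the genome, so their values are uncertain by what the authors' counting gave to those copies, and overlapping genes on the other strand cannot be told apart where the strand setting is not known.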

How the data were processed

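The authors deposited whole-number counts of reads per gene for 40 libraries made with QuantSeq 3' mRNA-Seq, which reads the 3' end of transcripts, per the labels. STAR, HTSeq and GRCh38/hg38 are named in the submitters' processing notes. No version, annotation or counting strand is given in the sources used here. Samples were grouped by their titles and descriptions, because the cell-selection label is the same for invasive and non-invasive samples. Counts were scaled by TMM and tested with edgeR 4.0.16 (robust quasi-likelihood F test, filterByExpr) in R 4.3.3. The 20 libraries of a line shared 1 fit, and tests between lines used 1 fit of 40 libraries. P-values were adjusted by Benjamini-Hochberg over all genes tested, and a gene was called at an adjusted p under 0.05. Intervals are 95% intervals from the t distribution with the residual degrees of freedom. The procedure was tested on simulated data. Alternatives were DESeq2 1.42.0, limma-voom 3.58.1, other normalization and filters, a replicate block, other sets of libraries and leaving out each library in turn.

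The 51 genes, the other gene lists and the tests were chosen with earlier results of these data known. Values were given by library for 18 genes chosen by role, and in each comparison for role members with the highest and lowest fold change and for those called against the direction of most. From other lists the counts and the called genes of largest change were given. KIF23, CCNA2 and AURKB values in further comparisons, and some further genes such as NEK2, KIF11 and PKMYT1, were named after their values were seen.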

Additional observations from a re-analysis of the deposited data

Results flagged for a closer look

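Among 190 groups of 4 libraries checked, 15 had a library far from the other 3, where chance gives about 1 in 20. The shallow Kyse30 invasive replicate 1 accounts for 5 of the 15: CCNB1 at 2.15 CPM, BIRC5 at 0 CPM, ANLN at 2.15 CPM, TOP2A at 36.5 CPM and a summed level of 958 CPM, each below the other 3 libraries. In Kyse30 the other cases were MAD2L1 at 21.1 CPM and the summed level at 3321 CPM in cetuximab replicate 2, KIF18A at 6.10 CPM in serum-free replicate 2 and MKI67 at 108 CPM in serum-free replicate 4, all high. In FaDu, cetuximab replicate 2 was high in TPX2 (365 CPM) and MKI67 (737 CPM), and non-invasive replicate 2 was high in CCNB1 (108 CPM). Low FaDu values were BIRC5 at 4.03 CPM in serum-free replicate 4, TPX2 at 28.4 CPM in serum-free replicate 2 and BUB1B at 44.0 CPM in invasive replicate 3.

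The log2 fold change of non-invasive EGF cells against serum-free spheroids differed between lines by the interaction test in 30 of the 51 genes. Of all genes tested 15.7% were called in that test. Among the genes given by library, the log2 difference (Kyse30 minus FaDu) was -1.93 for CDK1, -2.38 for CCNB1, -2.08 for CKS2, -2.80 for BIRC5, -2.20 for MAD2L1, -1.41 for CENPF, -2.61 for CDC20, -2.69 for UBE2C, -1.96 for TOP2A and -2.51 for MKI67. The effect of the MEK inhibitor against non-invasive cells differed in 4 genes, CCNA2 (1.76), MAD2L1 (2.01), KIF23 (2.23) and CDC25B (-1.11). Of all genes 5.10% were called there. Against cetuximab the effect of the MEK inhibitor differed in 1 gene, KIF23 (1.66), where 1.04% of all genes were called.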

How the results depend on the processing

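FaDu counts against serum-free spheroids stayed within 1.5 times the reported count under every alternative run, as did the FaDu comparison of the MEK inhibitor with cetuximab except in the fit of all 40 libraries (8 genes). That fit also gave 0 for FaDu invasive against non-invasive, 4 for cetuximab and 3 for the MEK inhibitor against non-invasive cells, and in Kyse30 4, 6, 43 and 45 for cetuximab and the MEK inhibitor against non-invasive and against serum-free. The 2 groups alone gave 6 (FaDu invasive), 4, 14, 37 and 46 (the same 4 Kyse30 comparisons) and 18 (serum-free lines). DESeq2 gave 6 (FaDu invasive), 4 and 6 (Kyse30 cetuximab and MEK inhibitor against non-invasive), 32 (Kyse30 cetuximab against serum-free), and 10 and 3 (MEK inhibitor difference between lines, against non-invasive and against cetuximab). Limma-voom gave 14 for Kyse30 non-invasive EGF cells against serum-free (EGF for short), 2 and 1 for its inhibitors against non-invasive, 18 and 0 for the line differences of EGF and of MEK inhibitor against cetuximab, and 17 for the serum-free lines. RLE scaling gave 1 for Kyse30 cetuximab against non-invasive. Without the shallow library Kyse30 gave 35 (EGF), 4 and 9 (inhibitors against non-invasive), 44 and 47 (against serum-free), and 14 and 9 for the MEK inhibitor line differences. Without the 3 libraries that stand apart these were 38, 2 and 2, 45 and 47, and 7 and 9. The cause was not tested. Most counts from alternative fits, here, above and in the next paragraph, are given without the share of all genes called in the same fit. A larger or smaller count may therefore follow the calls over all genes.

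Leaving out each library in turn gave 0 to 4 genes for FaDu invasive, 6 to 11 for cetuximab and 8 to 17 for the MEK inhibitor against non-invasive, 9 to 19 for Kyse30 EGF and 10 to 26 for its MEK inhibitor against serum-free. With a replicate block Kyse30 EGF gave 14 genes, Kyse30 cetuximab against non-invasive 1, and the line difference of MEK inhibitor against cetuximab 0. Over all pairs of groups together, same-numbered libraries had correlations between -0.29 and 0.42 (FaDu) or -0.16 and 0.44 (Kyse30). Of the 20 libraries of each line, 6 and 8 were closest to their own number. Invasive and non-invasive libraries were not checked on their own, so this cannot decide whether those samples are paired. Of 341 called gene values none reversed, and 2 (DESeq2), 47 (limma-voom), 20 (replicate block) and 9 (RLE) lost the call. Depth was lowest in the shallow library, with 463124 counts.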

Other observations

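All 16 DNA replication genes rose in non-invasive EGF cells of FaDu against serum-free spheroids, with the origin licensing factor CDC6 at 4.31 (SE 0.24, edgeR adjusted p = 1.3e-13) and the ribonucleotide reductase subunit RRM2 at 4.04 (SE 0.28, edgeR adjusted p = 6.0e-12). Of all genes 25.3% were called higher in that comparison. With the MEK inhibitor against non-invasive cells 10 of 16 fell and none rose, where 14.9% of all genes were called lower. CDC6 fell by 1.42 (SE 0.19, edgeR adjusted p = 2.2e-06) and RRM2 by 1.19 (SE 0.22, edgeR adjusted p = 1.7e-04). In Kyse30 the same serum-free comparison had 1 call among the 16, MCM7 at -0.78 (SE 0.19, edgeR adjusted p = 0.0062), where 12.9% of all genes were called. The log2 fold change was called smaller than in FaDu in 16 of 16 by the interaction test, against 6.20% of all genes.

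G1 cyclins and kinases rose in 7 of 8 in non-invasive EGF cells of FaDu against serum-free spheroids, with CCNE2 at 3.33 (SE 0.48, edgeR adjusted p = 2.2e-06) and CCNE1 at 1.89 (SE 0.45, edgeR adjusted p = 0.0011), and in none of 7 tested in Kyse30. Of all genes 25.3% were called higher in FaDu and 8.10% in Kyse30 in that comparison. With the MEK inhibitor against non-invasive FaDu cells 5 of 8 fell, where 14.9% of all genes were called lower. The CDK inhibitor gene CDKN1A rose in both lines in non-invasive EGF cells against serum-free spheroids, by 3.07 (SE 0.43, edgeR adjusted p = 1.8e-05) in FaDu and 2.87 (SE 0.47, edgeR adjusted p = 1.6e-04) in Kyse30. In FaDu it fell with cetuximab and with the MEK inhibitor against non-invasive cells, at -2.43 (SE 0.41, edgeR adjusted p = 0.0011) and -2.71 (SE 0.42, edgeR adjusted p = 1.3e-04). Among squamous markers the keratin gene KRT6A rose in non-invasive EGF cells against serum-free spheroids in both lines, by 7.24 (SE 0.63, edgeR adjusted p = 4.0e-10) in FaDu and 3.41 (SE 0.62, edgeR adjusted p = 5.1e-04) in Kyse30. The sum of all 8 markers moved far less in FaDu, from 1552 to 1833 CPM in serum-free to 2456 to 2958 CPM in non-invasive libraries. In Kyse30 that sum was 561 to 647 CPM in serum-free and 1115 to 1790 CPM in non-invasive libraries. The other markers are not given gene by gene, so the KRT6A value cannot stand for the list. These lists were chosen with earlier results known.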
